A study of Mus musculus with 90 samples.

Results

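The genes described here encode the contractile and metabolic machinery of striated muscle, measured in whole melanoma tumours. They are 34 genes chosen by name: 8 of the thick filament, 8 of the thin filament, 7 of the Z disc and titin, 5 of calcium handling, 5 of energy metabolism, and Trim63, a ubiquitin ligase of muscle. All 34 were measured by a probe set that names 1 gene symbol, among 18194 genes in all, and a gene with several probe sets was read from the probe set that was brightest on average over the 90 arrays. Each value is a log2 intensity from an expression array, 1 array per tumour, so a step of 1 is a doubling and the number of arrays limits the precision.

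Every tumour was a subcutaneous melanoma allograft with the genotype label Hgftg;Cdk4R24C/R24C, that is an Hgf transgene with both Cdk4 alleles changed, and the strain label B6.cBrd. Mice received repeated intraperitoneal doses of an anti-mouse PD-L1 antibody (mIgG1 D265A), of a control mouse IgG1 carrying D265A, or of PBS vehicle. Each antibody was dosed at 10 mg/kg and PBS at 10 ml/kg according to the labels, while the series' design text also mentions 20 mg/kg. Under anti-PD-L1, study 2 held 3 relapse, 2 growth delay, 17 responder and 14 non-responder tumours, beside 14 IgG and 3 PBS tumours. Study 3 held 3 relapse, 3 stabilization, 10 responder and 9 non-responder tumours, beside 8 IgG and 4 PBS tumours. Responders had lost at least 5% of their volume and were taken after 2 to 12 doses, and non-responders kept growing. Stabilization tumours are responders with no volume change between 2 measurements, relapse tumours had regressed below a measurable size and regrew after 4 to 10 doses, and growth delay tumours came up after treatment in mice with no initial growth. The tumours grew in mice, not in culture, and each array reads a piece of tumour with all the cells that piece holds.

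In a muscle fibre, thick filaments of myosin pull on thin filaments of actin, and calcium released from the sarcoplasmic reticulum starts the pull by binding troponin. Fibres differ in the copies of these genes they use. Fast fibres use the myosin heavy chains Myh4, Myh1 and Myh2 with fast troponins, and slow, oxidative fibres use Myh7 with slow troponins and much myoglobin. Mouse skin lies over a thin sheet of striated muscle, the panniculus carnosus. In these bulk samples fewer cells of a type and less RNA per cell cannot be told apart.

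Promoters of 4 myosin heavy chain genes are shown because the fibre type differences below turn on the myosins. That of Acta1 is shown because this gene serves below as the example of the set. Each is the 250 bases before the RefSeq transcription start (build GRCm38.p6). Capitals mark matches to the MEF2 and CArG motifs, the sites named for the MEF2 factors and for serum response factor.
Myh4: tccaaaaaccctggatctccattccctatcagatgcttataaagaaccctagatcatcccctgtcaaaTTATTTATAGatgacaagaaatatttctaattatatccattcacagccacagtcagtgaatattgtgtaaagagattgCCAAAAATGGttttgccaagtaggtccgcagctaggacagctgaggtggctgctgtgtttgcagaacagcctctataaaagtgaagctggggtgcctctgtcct
Myh1: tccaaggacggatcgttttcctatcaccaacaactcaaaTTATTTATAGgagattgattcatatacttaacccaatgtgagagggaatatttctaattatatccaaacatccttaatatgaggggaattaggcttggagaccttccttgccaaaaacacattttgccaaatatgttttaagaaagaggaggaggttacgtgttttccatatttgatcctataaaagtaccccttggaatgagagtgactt
Myh2: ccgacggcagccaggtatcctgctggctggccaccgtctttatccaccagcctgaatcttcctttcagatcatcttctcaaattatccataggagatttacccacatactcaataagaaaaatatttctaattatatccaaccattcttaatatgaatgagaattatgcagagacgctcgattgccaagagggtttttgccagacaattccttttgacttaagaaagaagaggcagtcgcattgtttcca
Myh7: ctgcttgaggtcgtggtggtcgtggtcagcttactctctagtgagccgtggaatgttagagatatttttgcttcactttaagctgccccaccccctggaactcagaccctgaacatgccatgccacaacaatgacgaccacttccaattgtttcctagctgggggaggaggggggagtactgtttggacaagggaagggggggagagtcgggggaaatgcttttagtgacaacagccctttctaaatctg
Acta1: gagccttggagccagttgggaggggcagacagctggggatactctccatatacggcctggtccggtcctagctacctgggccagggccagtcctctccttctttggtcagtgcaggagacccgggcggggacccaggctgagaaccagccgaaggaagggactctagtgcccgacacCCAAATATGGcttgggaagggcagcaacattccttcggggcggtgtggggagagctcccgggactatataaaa
The Myh4 window is chr11:67237562-67237811 on the plus strand, that of Myh1 is chr11:67199852-67200101 (plus) and that of Myh2 is chr11:67170777-67171026 (plus). These 3 fast myosin genes neighbour each other, with the Myh1 start 29.1 kb after that of Myh2 and the Myh4 start 37.7 kb after that of Myh1. The Myh7 window, the first of 2 that the table lists, is chr14:54994627-54994876 (minus), and the Acta1 window is chr8:123894776-123895025 (minus). Both motifs read the same on either strand. Promoters were found for 27 of the 34 genes. A MEF2 match lay in 4 of the 27 (Ttn, Myh1, Myh4 and Pvalb), and 2.92% of 32851 promoters of the same length held one. A CArG match lay in 3 of 27 (Acta1, Myh4 and Ldb3), against 1.47% of all promoters, and Myh4 held both. The letters CANNTG, which myogenic factors such as MyoD can bind, lay in 22 of 27, against 66.2% of all promoters. A match is a description of letters, not a measured site.

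The muscle genes were at a low level in most tumours and very high in a minority, and tumours with high values lay in every group but study 3 PBS. The mean of the 34 genes in a tumour had a lowest value of 5.04, a median of 5.49 and a highest of 12.68 on the log2 scale. A tumour's fast fibre gain was taken as the mean, over 12 fast fibre genes, of the value minus that gene's median over the 90 tumours. By steps chosen after the values were seen, 29 of 90 tumours had a gain of at least 1, 23 a gain of at least 2 and 13 a gain of at least 4. A gain of at least 2 was found in 1 of 3 relapse, 1 of 2 growth delay, 2 of 17 responder, 4 of 14 non-responder, 3 of 14 IgG and 2 of 3 PBS tumours of study 2. In study 3 it was found in 1 of 3 relapse, 1 of 3 stabilization, 4 of 10 responder, 3 of 9 non-responder, 1 of 8 IgG and 0 of 4 PBS tumours. The 3 highest gains were 8.33 in study 3 responder 4, 6.78 in study 2 responder 14 and 6.18 in study 3 stabilization 2.

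**Figure D1:**
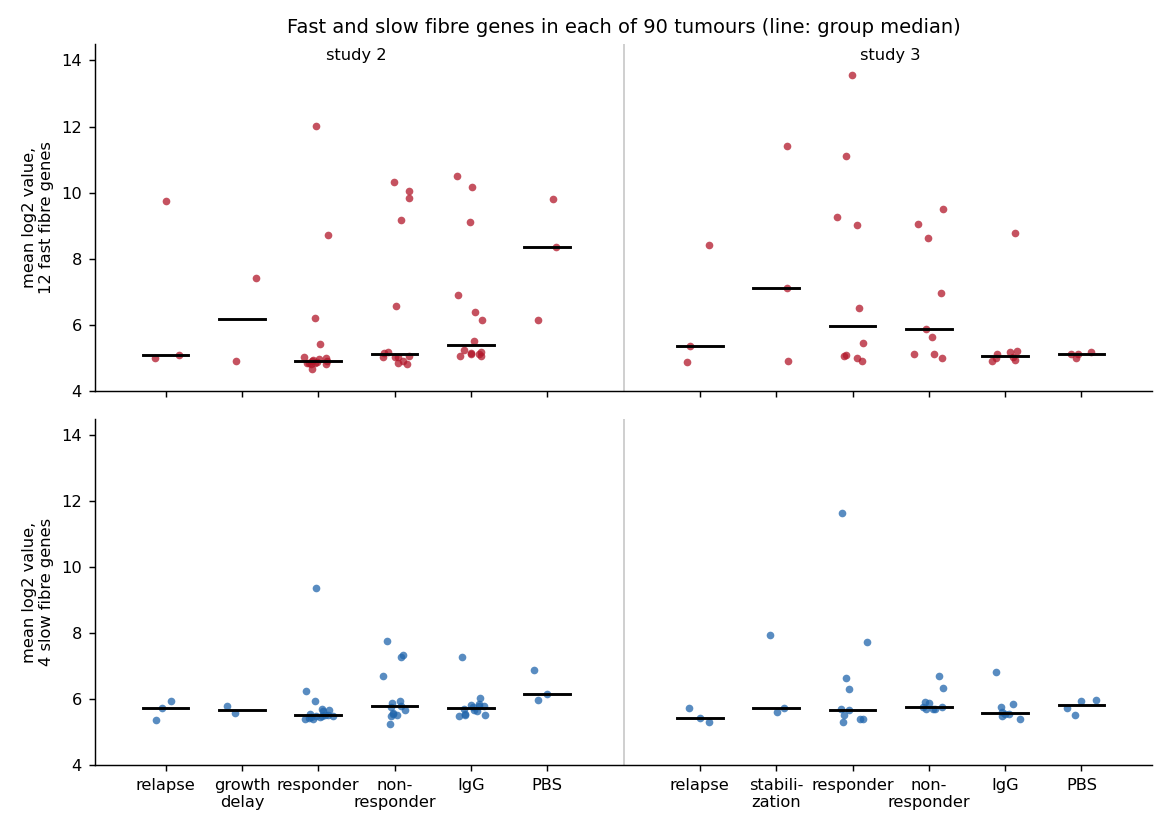
Mean log2 value of 12 fast fibre genes (top) and 4 slow fibre genes (bottom) in each tumour, by group, with 1 point per tumour and a line at the group median. Most tumours lie near a fast mean of 5, with single tumours up to 13.55, and a slow mean up to 11.64.

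Acta1, the actin of skeletal muscle thin filaments, shows the pattern of the set. In study 2 it was 6.56, 12.69 and 6.00 in the relapse tumours and 5.78 and 10.07 in the growth delay tumours (log2 values). In responders of study 2 the lowest, median and highest values were 5.08, 5.59 and 13.90, in non-responders 4.99, 5.61 and 12.85, and in IgG tumours 5.30, 6.73 and 13.21. The 3 PBS tumours of study 2 had 12.35, 7.98 and 11.20. Acta1 thus spanned at least 4 log2 units within each of these 6 groups, and the groups overlapped. In study 3 the relapse tumours had 11.20, 7.29 and 5.23 and the stabilization tumours 9.48, 13.46 and 5.09. Responders of study 3 had a lowest, median and highest value of 5.15, 7.67 and 14.26, non-responders 5.20, 7.55 and 12.10, and IgG tumours 5.48, 5.85 and 11.34. The 4 PBS tumours of study 3, at 5.75, 5.72, 5.49 and 5.58, were all low. Acta1 lay at least 1 log2 unit above its median over the 90 tumours in 34 of them and at least 4 units above in 23.

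Among the thick filament genes, Myh4, the heavy chain of the fastest fibres, had 3.60, 8.92 and 3.58 in study 2 relapse tumours and 3.34 and 6.73 in growth delay tumours. Its lowest, median and highest log2 values in study 2 were 3.12, 3.37 and 11.55 in responders, 3.25, 3.68 and 9.85 in non-responders and 3.43, 4.15 and 10.88 in IgG tumours. The PBS tumours of study 2 had 9.43, 3.95 and 7.42. In each of these groups the same gene ran between a low level and a high one. In study 3 the Myh4 values were 8.26, 4.13 and 3.37 in relapse and 6.999, 10.87 and 3.27 in stabilization tumours. They were 3.31, 5.17 and 13.08 in responders (lowest, median, highest), 3.02, 4.80 and 8.96 in non-responders and 3.35, 3.69 and 7.37 in IgG tumours. The PBS tumours of study 3, at 3.34, 3.52, 3.38 and 3.54, were again all low.

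The other thick filament genes also ran between low and high values. Myh1, another heavy chain of fast fibres, had group medians from 2.82 (study 3 PBS) to 7.31 (study 3 stabilization) and a highest value of 12.32. Myh2, of the more oxidative fast fibres, had group medians from 4.31 (study 2 responders) to 5.45 (study 2 PBS) and a highest of 12.76. Mylpf, a regulatory light chain of fast fibres, had group medians from 6.06 (study 2 responders) to 9.32 (study 2 PBS) and a highest of 13.46. Myl1, an essential light chain, lay at least 1 unit above its median in 32 tumours, and the myosin binding proteins Mybpc2 and Mybpc1, of fast and of slow fibres, in 24 and 19. Over the 90 tumours the 34 members had a median range of 8.48 log2 units, against 1.45 for all 18194 genes, and 31 of 34 lay in the top 1% of genes by range. Their median residual SD within groups was 1.62, against 0.23 for all genes. The 3 members outside that top 1% were the slow troponins Tnni1 and Tnnt1 and the chosen probe set of Mb. For every member but Mb the highest value was that of study 3 responder 4, so the upper ends of these ranges come from 1 array.

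Of the troponins, which carry the calcium signal to the thin filament, the fast forms moved in many tumours. Tnnt3, which ties troponin to tropomyosin, had group medians from 4.61 (study 2 responders) to 8.84 (study 2 PBS) and a highest value of 14.17. Tnni2, the inhibitory subunit, ran from 5.61 to 9.05 over the medians of the same groups, and Tnnc2, the calcium binding subunit, from 5.46 to 10.19. Tnnc2 was at least 1 unit above its median in 33 tumours, Tnnt3 in 32 and Tnni2 in 29. Of the slow forms Tnnc1 was so in 13 tumours, Tnnt1 in 10 and Tnni1 in 10, and each of these tumours was also at least 1 unit up in the fast partner. Probe sets differ in floor and in response to RNA. Here and below, a lower count past a step thus does not show that a gene changed in fewer tumours.

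The Z disc, where thin filaments of neighbouring sarcomeres are anchored, gave a similar picture in its genes other than Ttn. Actn3, the alpha actinin of fast fibres, was at least 1 unit up in 25 tumours, Myot in 22, Myoz1 and Ldb3 in 21 each, Tcap in 20, and Actn2, the actinin of all fibres, in 12. Ttn, the giant spring protein of the sarcomere, had group medians from 5.86 (study 3 stabilization) to 7.15 (study 2 growth delay), and a highest value of 13.34. It was also high in some tumours without a fast gain. Examples are 8.45 in study 3 PBS 2 (fast gain -0.24) and 8.17 in study 2 non-responder 12 (fast gain -0.43). The rho of Ttn with the mean of the other members was 0.58. Among calcium handling genes, Atp2a1, the calcium pump of fast fibres, had group medians from 5.88 (study 3 PBS) to 8.85 (study 2 PBS) and a highest of 14.28, and Pvalb, a calcium buffer of fast fibres, ran from 6.04 (study 3 IgG) to 9.88 (study 2 PBS) with a highest of 14.01. Casq1, the calcium store of the reticulum, was at least 1 unit up in 23 tumours, the release channel Ryr1 in 19 and its voltage sensor Cacna1s in 8. Ckm, the creatine kinase that buffers ATP in the cytosol, had group medians from 6.57 (study 2 responders) to 9.94 (study 2 PBS) and a highest of 14.15. Pygm, the glycogen phosphorylase of muscle, was at least 1 unit up in 23 tumours, the glycolytic enolase Eno3 in 18 and the mitochondrial creatine kinase Ckmt2 in 17.

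Fast and slow fibre genes co-varied, and in some tumours fast fibre genes were raised with no slow one 1 unit up. Over the 90 tumours r was 0.73 and rho 0.51 for Tnnt3 with Tnnt1, 0.75 and 0.56 for Tnni2 with Tnni1, 0.76 and 0.75 for Tnnc2 with Tnnc1, and 0.72 and 0.50 for Myh4 with Myh7. Myh4 was at least 1 unit above its median in 31 tumours; Myh1 was so in 27 of them, Myh2 in 19 and Myh7, the slow heavy chain, in 10. No tumour was at least 1 unit up in Myh2 or Myh7 without Myh4. Myh1 was at least 1 unit up in 30 tumours, and in some of them Myh4 was not. These were study 2 responder 3 (Myh1 7.86, Myh4 4.54), study 2 responder 2 (5.34 and 3.13) and study 2 IgG 12 (4.18 and 3.60). Myh7 itself had low values in nearly every group. It was 4.67, 4.78 and 5.06 at the lowest, median and highest of the 3 study 2 relapse tumours and 4.89 and 5.03 in growth delay tumours. In study 2 its lowest, median and highest values were 4.56, 4.84 and 8.98 in responders, 4.53, 4.92 and 7.17 in non-responders, 4.66, 4.88 and 6.44 in IgG tumours and 4.76, 5.32 and 6.33 in PBS tumours. In study 3 they were 4.67, 4.69 and 4.92 in relapse, 4.80, 4.87 and 7.66 in stabilization, 4.71, 4.98 and 11.67 in responder, 4.86, 4.94 and 6.48 in non-responder, 4.55, 4.92 and 5.37 in IgG and 4.69, 4.89 and 5.10 in PBS tumours. The medians of Myh7 over the 12 groups thus lay within 1 unit of each other, and only single tumours stood higher.

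**Figure D2:**
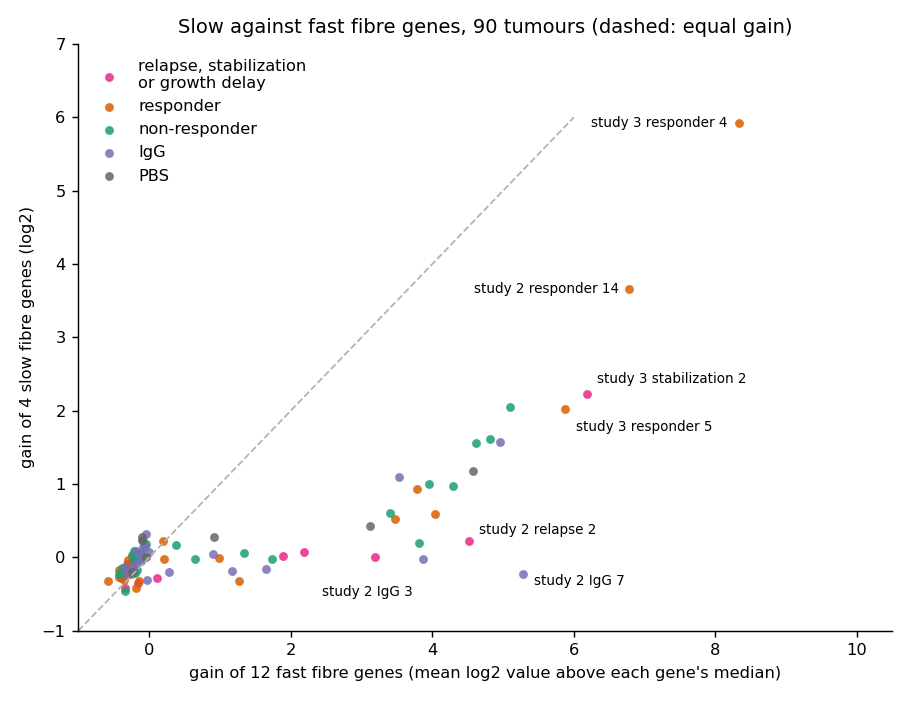
Gain of 4 slow fibre genes (vertical) against gain of 12 fast fibre genes (horizontal), both as mean log2 value above each gene's median over 90 tumours, with 1 point per tumour coloured by outcome. Both gains are largest in study 3 responder 4, and study 2 IgG 7 has a fast gain of 5.29 with a slow gain of -0.22.

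Single arrays show which genes went together. In study 3 responder 4, all 12 fast and all 4 slow fibre genes were at least 1 unit up, with Myh4 at 13.08, Myh1 at 12.32, Myh2 at 12.76 and Myh7 at 11.67. Study 2 responder 14 was similar and lower, with Myh4 at 11.55, Myh1 at 11.62, Myh2 at 10.56 and Myh7 at 8.98. In both the whole range of fibre genes was high. Study 2 IgG 7 had Myh4 at 10.88 and Myh1 at 8.77, but Myh2 at 4.24 and Myh7 at 4.66, and 0 of 4 slow fibre genes was 1 unit up. Study 2 relapse 2 also had 0 of 4 slow fibre genes up, with Myh4 at 8.92, Myh1 at 9.45, Myh2 at 7.37 and Myh7 at 4.78. In study 2 IgG 3 Myh4 was 9.40 while Myh1 was 3.52 and Myh2 4.48, and study 3 non-responder 3 had Myh4 at 8.13 beside Myh1 at 3.60 and Myh2 at 5.01. These last 2 tumours had 10 of 12 fast fibre genes at least 1 unit up and lacked only Myh1 and Myh2. Their Acta1 values were 11.82 and 11.04 and their Ckm values 11.27 and 11.46, both far above the medians of 5.98 and 7.43. Myh4 was also raised, with Myh1 and Myh2 less than 1 unit up, in study 2 IgG 8 and study 3 responder 9. The gains were 2.90 for Myh4 and 0.72 for Myh1 in the first, and 2.70 and -0.08 in the second. Other fast fibre genes were up there too, such as Tnnc2 at 8.31 and 8.66 against its median of 5.98.

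**Figure D3:**
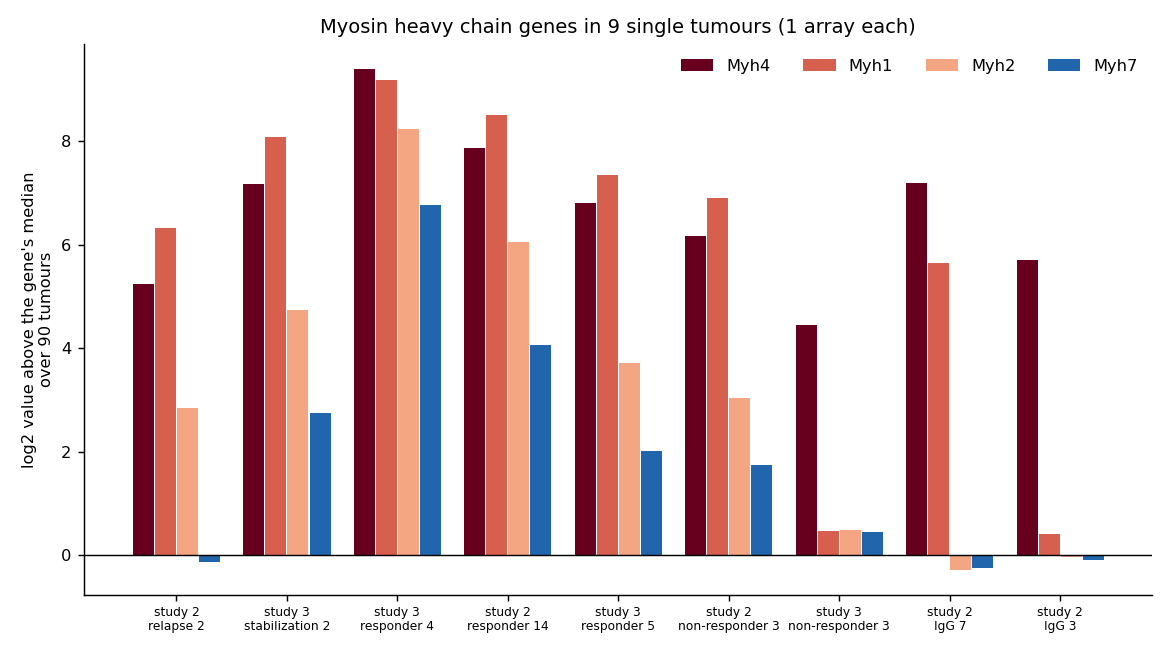
Gain of 4 myosin heavy chain genes (log2 value above the gene's median over 90 tumours) in 9 tumours, 1 array each and so without error bars. Myh4 is high in all 9, while Myh2 and Myh7 are near 0 in both IgG tumours and in study 3 non-responder 3, and Myh1 is near 0 in study 2 IgG 3 and study 3 non-responder 3.

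Mb, the oxygen store of oxidative fibres, depended on the probe set. The one with the highest mean was flat, between 6.05 and 6.77 over the 90 tumours, and no tumour was 1 unit above its median of 6.43. The second probe set of Mb ran from 4.99 to 13.59 and was at least 1 unit up in 20 tumours. Of the tumours with a fast gain of at least 2, 9 had 0 of 4 slow fibre genes 1 unit up, and in these the second Mb probe set differed widely. It was 8.76 in study 2 relapse 2, 7.52 in study 3 relapse 1, 6.61 in study 2 growth delay 2, 7.48 in study 2 responder 6 and 8.93 in study 3 responder 8. It was 5.53 in study 3 non-responder 3, 5.54 in study 2 IgG 3, 6.08 in study 2 IgG 7, and between 6.61 and 7.48 in study 2 PBS 3. All 4 slow fibre genes were up in study 2 non-responder 3, where it was 9.84. The flat probe set stands for Mb in all counts below. Of the 10 members with several probe sets, the chosen one had an r of at least 0.84 with the mean of the other members in all but Mb. By rank the chosen probe sets of Ttn and Ryr1 followed less, with a rho of 0.58 each. The best other probe set had 0.86 for Ttn and 0.82 for Ryr1.

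The members' values went together over tumours. Against the mean of the other 33 genes, Pearson's r over the 90 tumours was at least 0.9 for 24 of the 34 members, and 22 kept this without the 2 tumours farthest from the median, study 3 responder 4 and study 2 responder 14. Spearman's rho was at least 0.7 for 23 of 34. Myot, a Z disc protein, had r = 0.99 and rho = 0.91, Actn3 r = 0.99 and rho = 0.86, and Tnnc2 r = 0.95 and rho = 0.93. Among slow fibre genes the values were r = 0.83 and rho = 0.52 for Myh7 and r = 0.82 and rho = 0.58 for Tnnt1. Over the means of the 12 groups r was at least 0.9 for 21 members and below 0 for 2, Neb (-0.53) and Trim63 (-0.43). These are descriptions: the genes of a tumour share 1 array and 1 piece of tissue, and the groups share the treatment of their study.

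The 3 members that followed least were Mb, by its flat probe set (r = -0.11), Trim63 (r = 0.24) and Neb (r = 0.55). Trim63 and Neb, which encodes nebulin, the ruler protein of the thin filament, were also bright in tumours poor in muscle transcripts, with medians of 8.93 and 7.62 over the 90 tumours. Trim63 was 8.64, 9.50 and 8.60 in relapse tumours and 9.01 and 9.21 in growth delay tumours of study 2. Its lowest, median and highest values in study 2 were 7.57, 9.04 and 9.75 in responders, 6.12, 8.97 and 9.45 in non-responders and 8.50, 9.03 and 9.21 in IgG tumours, and the PBS tumours had 9.46, 8.90 and 8.81. In study 3 Trim63 was 9.12, 9.37 and 9.14 in relapse, and 4.65, 7.71 and 8.80 in stabilization tumours. The remaining groups of study 3 had 4.58, 8.78 and 11.51 in responders (lowest, median, highest), 8.46, 8.81 and 9.46 in non-responders and 8.69, 8.95 and 9.40 in IgG tumours, and the PBS tumours had 8.59, 8.44, 8.77 and 8.50.

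The 3 lowest Trim63 values were in tumours low in transcripts of pigment cells, though not every such tumour had a low one. The mean of 9 melanocyte genes (Pmel, Mlana, Tyr, Dct, Tyrp1, Sox10, Gpr143, Slc45a2 and Oca2) was below 9 in 6 tumours, a limit chosen after the values were seen. Study 3 stabilization 1 had a melanocyte mean of 6.57 with Trim63 at 4.65 and Neb at 4.49, and study 3 responder 3 had 6.42 with Trim63 at 4.58 and Neb at 4.51. Study 2 non-responder 14 had 8.04 with Trim63 at 6.12 and Neb at 5.68. Study 3 stabilization 2 had 8.55 with Trim63 at 7.71 and Neb at 9.04, and study 2 responder 5 had 8.98 with Trim63 at 8.39 and Neb at 7.68. Study 3 responder 4 went the other way, with a melanocyte mean of 6.34, Trim63 at 11.51 and Neb at 11.89, the highest values of both genes, in the tumour with the highest muscle mean. In the other 84 tumours the melanocyte mean lay between 9.12 and 10.30 and Trim63 between 7.57 and 9.75. Over all 90 tumours Trim63 and the melanocyte mean had r = 0.57 and rho = 0.53, and r = 0.93 and rho = 0.58 over 88 without study 3 responder 4 and study 2 responder 14. For Neb the values were r = 0.14 and rho = 0.20 over 90, and r = 0.52 and rho = 0.23 over 88.

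**Figure D4:**
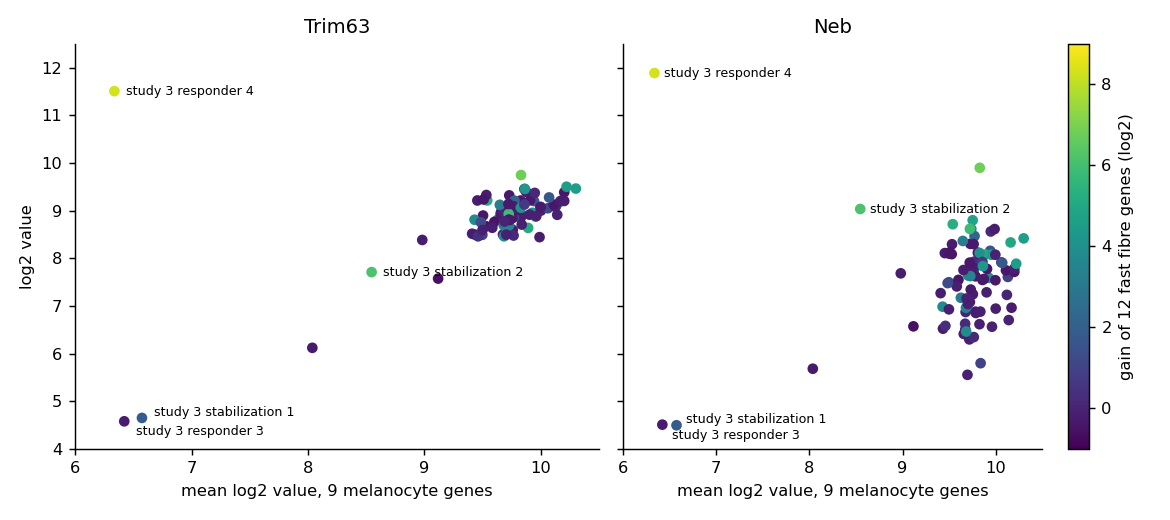
Log2 value of Trim63 (left) and Neb (right) against the mean log2 value of 9 melanocyte genes, with 1 point per tumour coloured by the gain of 12 fast fibre genes. Both genes are lowest in study 3 stabilization 1 and study 3 responder 3, which are low in melanocyte genes, and highest in study 3 responder 4, which has the largest fast gain.

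Many other muscle genes varied with the members over tumours. Of 38 measured genes of a further skeletal muscle list 32 had a rho above 0.5 with the mean of the 34 members over 90 tumours, led by Smpx (0.825), a small muscle protein, Klhl41 (0.824), which stabilises nebulin, and Cox6a2 (0.823), the muscle form of a respiratory chain subunit. In the list of other slow fibre genes 6 of 8 did, among them Csrp3 (0.73). Genes outside all lists with the highest rho were Popdc3 (0.82), Mylk4 (0.82), Trim54 (0.75), Mypn (0.75), Pdlim3 (0.74), Tpm1 (0.74), Cobl (0.73), Myhas (0.72), Cavin4 (0.72) and Eef1a2 (0.72). In the melanocyte, adipocyte, keratinocyte, fibroblast, endothelium, macrophage, T cell, B cell, smooth muscle, cardiac muscle and neuromuscular junction lists and for the Schwann cell gene Mbp no gene reached 0.5. Pearson's r was higher for some of these: the smooth muscle list mean had r = 0.50 and rho = 0.24 with the member mean (r = 0.33 without study 3 responder 4 and study 2 responder 14), and its gene Synm r = 0.80 and rho = 0.44. The list means of fibroblast, macrophage and T cell genes had r of 0.31, 0.29 and 0.18, and rho of 0.13, -0.02 and -0.15. Of the cardiac list, Mybpc3 had the highest rho, 0.24 (r = -0.05), then Nppb with 0.13 (r = -0.22) and Tnni3 with 0.12 (r = 0.40).

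Of 11 genes of embryonic or regenerating fibres, 3 had a rho above 0.5 with the member mean, namely Actc1 (0.70), Myog (0.59) and Myh8 (0.52). Study 3 responder 4 had 9 of 11 such genes at least 1 unit above their medians, with gains of 4.81 for the embryonic myosin Myh3, 4.75 for the perinatal myosin Myh8, 4.74 for the regulator Myog and 6.59 for Actc1, an actin of heart and of developing muscle. Study 2 responder 14 had 7 of 11, with 1.92 for Myh3, 2.00 for Myh8, 1.90 for Myog and 2.62 for Actc1. Study 3 stabilization 2 had 1 of 11 and study 3 responder 5 had 0 of 11, although their fast gains were 6.18 and 5.88. All 7 fibroblast genes and all 7 macrophage genes were also at least 1 unit up in study 3 responder 4, in study 3 stabilization 2 and in study 2 IgG 7, and 0 of either in study 2 responder 14 and study 2 non-responder 3. The part of these cells in the muscle values was not tested. Of the atrophy list Ankrd1, a stress response gene of muscle, had a rho of 0.57, and Fbxo32, a ligase that acts beside Trim63 in wasting muscle, 0.14.

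No muscle gene of the set passed the test between tumours that regressed and tumours that grew. With limma fitted over all genes and both studies given equal weight, 0 of 34 members passed an adjusted p of 0.05 for responders against non-responders, while 51.2% of all genes did (18.9% higher and 32.3% lower in responders). Without adjustment 0 of 34 had p under 0.05. The median log2 fold change of the members was 0.11, against -0.06 for all genes, and the members ran from -0.40 (Ckm) to 0.51 (Cacna1s). Acta1 had a fold change of -0.23 ± 0.82 (log2, SE) and Myh4 of -0.08 ± 0.74, so the error of each was several times its size. By role, 5 of 8 thick filament, 4 of 8 thin filament, 7 of 7 Z disc, 3 of 5 calcium and 3 of 5 energy genes had a value above 0, none past the threshold. In a further muscle list 0 of 38 genes passed upward and 3 downward, Synpo2l (-0.19 ± 0.05), Myoz3 (-0.16 ± 0.05) and Jph1 (-0.14 ± 0.05). These 3 genes followed the member mean little over the 90 tumours, with a rho of 0.195, 0.158 and 0.236. At the same threshold 7 of 7 fibroblast, 7 of 7 macrophage and 9 of 9 T cell genes were higher in responders.

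Most members had values of opposite sign in the studies, and for no member did this difference pass the threshold. In study 2, 2 of 34 members (Neb and Trim63) had a value above 0 for responders against non-responders, with a median of -0.58, and 0 passed, against 2.63% of all genes (0.616% upward and 2.01% downward). In study 3, 32 of 34 were above 0, all but Mb and Trim63, with a median of 0.75. Cacna1s alone passed there, at 6.24 in responders and 4.90 in non-responders, a rise of 1.34 ± 0.48 (limma adjusted p = 0.0248), while 36.7% of all genes passed. The lowest, median and highest Cacna1s values in study 3 were 4.71, 5.14 and 11.68 in responders and 4.57, 4.85 and 5.45 in non-responders, and the groups overlapped. Without study 3 responder 4, the tumour at 11.68, the rise was 0.73 ± 0.39 (limma adjusted p = 0.145). The second highest Cacna1s value among study 3 responders, 7.95, was in responder 3, which had a fast gain of -0.18 and a mean of 3 B cell genes (Cd79a, Cd79b and Ms4a1) of 11.57, the highest of the 90 tumours. Study 2 non-responder 14, with a B cell mean of 11.52 and a fast gain of -0.34, had Cacna1s at 8.11. The lowest, median and highest B cell means in study 3 were 5.55, 6.11 and 11.57 in responders and 4.77, 5.51 and 6.02 in non-responders. Without study 3 responder 3 and study 2 non-responder 14, left out after the data were seen, the rise was 1.15 ± 0.46 (limma adjusted p = 0.0537). The part of B cells in this result was not tested otherwise. For the difference between studies 0 of 34 members and 0% of all genes passed. Without adjustment 3 members had p under 0.05 (Cacna1s, Ryr1 and Tnnt1), and the median difference of the members was 1.43, against -0.02 for all genes.

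**Figure D5:**
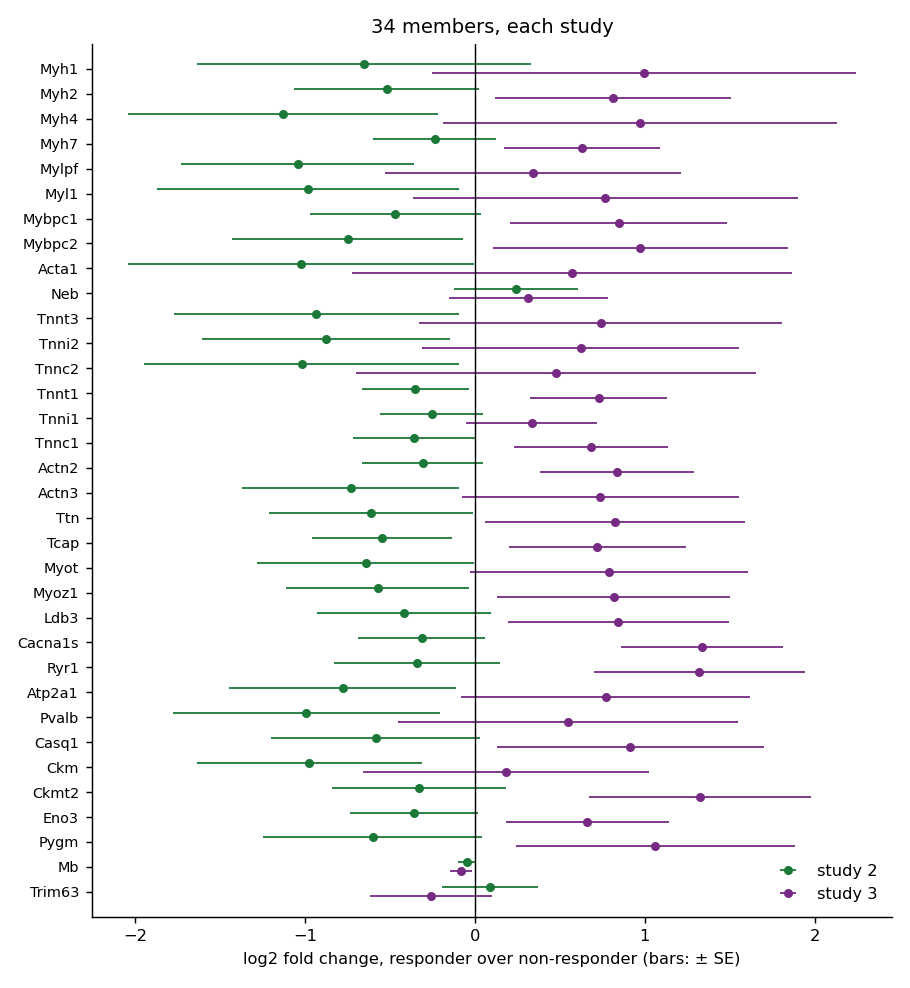
Log2 fold change of responders over non-responders (horizontal, bars ± SE from limma) for each of the 34 members in study 2 (17 against 14 tumours) and study 3 (10 against 9). Most members lie below 0 in study 2 and above 0 in study 3, with errors near the size of the change.

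Responders were also set against control IgG tumours. Over both studies 0 of 34 members passed for responders, while 35.4% of all genes did (15.3% higher and 20.1% lower), and 31 of 34 lay above 0 with a median of 0.47. In study 2 the median was -0.49 and 0 members passed (27.3% of all genes). In study 3 it was 1.51, with 33 of 34 above 0, and 2 members passed, both higher (9.2% of all genes passed upward and 8.18% downward): Ryr1 by 1.76 ± 0.64 (limma adjusted p = 0.0461) and Cacna1s by 1.45 ± 0.49 (limma adjusted p = 0.0331). Ryr1 was 4.61, 5.57 and 12.42 in responders of study 3 (lowest, median, highest) and 4.20, 4.54 and 5.72 in IgG tumours, and Cacna1s in IgG tumours was 4.54, 4.72 and 5.43. Without study 3 responder 4 the changes were 1.09 ± 0.57 for Ryr1 (limma adjusted p = 0.225) and 0.85 ± 0.40 for Cacna1s (limma adjusted p = 0.183). Ryr1 was 6.90 in study 3 responder 3 and 6.77 in study 2 non-responder 14, the B cell rich tumours named above, and the B cell means of study 3 IgG tumours were 5.06, 5.45 and 6.71. Without these 2 tumours the changes were 1.71 ± 0.66 for Ryr1 (limma adjusted p = 0.0765) and 1.26 ± 0.48 for Cacna1s (limma adjusted p = 0.0688). The sample titles carry numbers, and in both studies these fall in separate ranges for anti-PD-L1, IgG and PBS tumours. The titles do not say what the numbers stand for. A difference tied to them, such as one between cohorts, and one between treatments cannot be told apart. When each gene's values were turned into normal scores, which keep only the order of the tumours, 14 of 34 members were lower in study 2 responders than in study 2 IgG tumours (21% of all genes passed downward). Mb was among the 14 by its flat probe set, which did not follow the other members (r = -0.11). The 14 also include Ckm, Tcap, Myh4, Tnnt3, Tnnc2 and Atp2a1. Their medians in study 2 responders and IgG tumours were 6.57 and 7.76 for Ckm and 3.37 and 4.15 for Myh4, and the highest tumour was a responder for both genes.

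Non-responders against IgG gave 0 of 34 members (0.0055% of all genes), with 31 of 34 above 0 and a median of 0.36. In study 3 alone it gave 0 of 34 as well (0.693% of all genes, 0.671% upward), with 30 of 34 above 0 and a median of 0.60. IgG against PBS gave 0 of 34 as well (0.0055% of all genes), with 4 of 34 above 0 and a median of -0.37. The values had opposite signs in the studies, a difference that was not tested: for Acta1 the change was -2.53 ± 1.80 in study 2, with 7.98 in IgG and 10.51 in PBS tumours on average, and 0.93 ± 1.73 in study 3, with 6.56 in IgG and 5.64 in PBS tumours. Neither passed (limma adjusted p = 0.9998 in study 2 and 0.902 in study 3).

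No member was called in relapse tumours. Against non-responders 0 of 34 members passed (24% of all genes, 9.96% upward and 14.1% downward), with a median of -0.21, and against responders 0 of 34 passed (0% of all genes), with a median of -0.26. The 4 slow fibre genes had medians of -0.44 against non-responders and -0.62 against responders, and Tnni1 had a value of -0.62 ± 0.39 against non-responders (limma adjusted p = 0.202). Growth delay tumours, of which there were 2, had 0 of 34 members called against IgG (0% of all genes).

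Stabilization tumours differed from non-responders of study 3 in 1 member. Trim63 was 4.65, 7.71 and 8.80 in stabilization tumours, against 8.46, 8.81 and 9.46 in non-responders (lowest, median, highest). It fell by 1.83 ± 0.52 on the log2 scale (3 against 9 tumours, limma adjusted p = 0.00756), and 2 of the 3 stabilization tumours lay below all non-responders. Over all genes 31.3% passed (18% downward). Without stabilization 1 the difference was -0.62 ± 0.56 (limma adjusted p = 0.515), and without the tumours low in melanocyte genes, which leaves 1 stabilization tumour assumed to vary like the other groups, it was -0.08 ± 0.33. The other 33 members did not pass, and 32 of the 34 lay above 0, with a median of 0.75 and Acta1 at 1.13 ± 1.88. Against responders of study 3, 0 of 34 passed (0.11% of all genes, 0.0769% upward and 0.033% downward), with Trim63 at -1.57 ± 0.52 (limma adjusted p = 0.298).

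Only limma was run. At an unadjusted p under 0.05 it gave 0 of 34 members for responders against IgG over both studies, for non-responders against IgG, for relapse tumours against either group, for growth delay tumours against IgG and for IgG against PBS, and 1 of 34, Trim63, for stabilization tumours against responders. In study 2 it gave 0 of 34 for responders against non-responders and 1 of 34, Mb, for responders against IgG. Several of these comparisons share tumours: relapse and stabilization tumours were set against the same responders and non-responders, and responders and non-responders against the same IgG tumours.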

How the data were processed

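Whole-tumour RNA from 90 allografts was labelled from 800 ng and read on expression arrays, 1 array per tumour. The deposited values are log2 intensities, made by the authors with RMA and limma named per the submitters' processing notes. The sources used here do not say whether 1 normalization covered both studies. Of 45101 probe sets 34958 name 1 gene symbol in GEO's platform annotation, 932 several and 9211 none, which left 18194 genes, each by the probe set with the highest mean. Array medians lay between 5.71 and 5.90.

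One limma fit (3.58.1, R 4.3.3) held the means of 12 groups. Comparisons present in both studies were averaged with equal weight, and p-values were Benjamini-Hochberg adjusted over all genes, with a threshold of 0.05. Nothing in the labels says which tumours shared a donor tumour, and p-values reflect only how far these tumours spread, which may be technical in part. In data simulated on these genes the fit recovered 80% of 50 genes changed by 0.5 (log2) for responders against non-responders and 36% for stabilization tumours against non-responders, and 98% and 76% at 1. These shares are over genes drawn from all 18194, whose median residual SD was 0.23, and do not describe the members, whose median was 1.62.

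The members, the lists of other genes and the rule for named genes were chosen with earlier results of these data known. By that rule all members could be named, with up to 3 genes of each other list by smallest p or highest rho, and 10 genes outside the lists by highest rho. Of the 18 members the rule sets out for values in every group, Acta1, Myh4, Myh7 and Trim63 are given so, and the others by their range. Alternatives changed the probe set, filter, normalization, scale, variance model, threshold and tumours.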

Additional observations from a re-analysis of the deposited data

Results flagged for a closer look

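In groups of 4 to 10 tumours, 84 sets of values were examined for a tumour far from the rest. The gap of a tumour to its nearest neighbour was divided by the group's range. Where this ratio exceeded Dixon's critical value the set was marked, and 24 were marked. Chance marks about 1 group in 20, and the measures are not independent, since they come from the same tumours.

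Study 3 IgG 3 accounted for 16 of them and stood above the 7 other IgG tumours of its study. Its fast fibre mean was 8.77, its slow fibre mean 6.82 and its mean over 34 members 7.64 (log2 values). Among thick filament genes it had Myh4 at 7.37, Myh1 at 8.26, Myh2 at 6.50 and Mylpf at 10.39. Acta1 was 11.34, Tnnt3 8.99, Tnni2 9.60, Tnni1 7.24, Tnnc2 10.78 and Tnnc1 7.62. The calcium pump Atp2a1 was 8.19, the calcium buffer Pvalb 10.28 and Ckm 9.99.

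Study 3 responder 4 accounted for 6, all of slow or oxidative fibres. Its slow fibre mean was 11.64, with Myh2 at 12.76, Myh7 at 11.67, Tnnt1 at 11.71, Tnni1 at 11.15 and Tnnc1 at 12.03. In study 3 non-responder 7 Myh7 was 6.48. In study 3 responder 3 Trim63 was 4.58, in a tumour whose melanocyte mean was 6.42.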

How the results depend on the processing

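Counts of members called are given for each alternative that moved them, and no result reversed. In the comparisons within studies, responders against IgG in study 3 (2 called) gave 1 with the mean of all probe sets, 1 with quantile normalization within study, 4 with normal scores and 8 with PBS pooled with IgG, and responders against non-responders in study 3 (1 called) gave 2 with stabilization counted as response. Both gave 0 with array weights, at a threshold of 0.01 and with only the groups compared. Leaving out tumours gave 0 in both: those low in melanocyte genes, study 3 responder 4, and it with study 2 responder 14. So did leaving out study 3 responder 3 and study 2 non-responder 14. With normal scores responders against non-responders in study 3 also gave 0. Without the dimmer genes, those at or below the median gene mean, both gave 0 as well. Cacna1s (mean 5.17) and Ryr1 (5.42) lay under the lowest array median of 5.71, so that 0 cannot test them. Responders against IgG in study 2 (0 called) gave 2 with array weights, 14 with normal scores, 1 (Mb) each with quantile normalization, with arrays centred on the median and with only the groups compared, and 2 (Tcap and Ckm) without study 3 responder 4 and study 2 responder 14. Over both studies, responders against non-responders gave 1 (Mb, lower) with quantile normalization, and relapse against non-responders 1 (Tnni1, lower) with normal scores. Stabilization against non-responders gave 34 and against responders 34 with array weights, whose estimate stopped before it converged. The first gave 0 with normal scores and 0 without the tumours low in melanocyte genes. Without study 3 responder 3 and study 2 non-responder 14 the second gave 1 (Trim63, lower). Leaving out each tumour gave 0 to 2 against non-responders and 0 to 1 against responders. Causes were not tested. Of the other results, 92 kept their call or value, 27 single-gene values no longer passed and 14 moved, all but 1 of them on values standardized per gene, a change of unit. The probe set with the largest SD and the leave-out settings were chosen after seeing the data, except leaving out single tumours of small groups. No paired analysis was possible because replicate numbers were given in accession order and pair no tumours. The number of arrays, down to 2 in growth delay tumours, limits the precision.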
